A study of Homo sapiens with 10 samples.

Results

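The genes described here encode the human DNA topoisomerases TOP1, TOP1MT, TOP2A, TOP2B, TOP3A and TOP3B and the tyrosyl-DNA phosphodiesterases TDP1 and TDP2, which clear topoisomerases trapped on DNA. They were chosen by name, through Ensembl identifiers matched to symbols, and make up 8 of the 20327 genes in each table. All 8 had reads in every library and passed the filter on low values. RNA was measured in hTERT RPE-1 cells, a telomerase-immortalised line from human retinal pigment epithelium labelled wild type, after 48 h of starvation in 0.1% fetal bovine serum. One experiment compared 200 µM merbarone for 30 min with the vehicle DMSO for 30 min, with 3 libraries per group. The other compared 200 µM merbarone for 2 h with untreated cells, with 2 libraries per group, so its control had received no vehicle. The series concerns DNA supercoiling and the pausing of RNA polymerase II near promoters.

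Topoisomerases relieve the torsion and tangles that arise when polymerases move along DNA, by cutting strands and resealing them through a covalent bond between the enzyme's tyrosine and the DNA. Type I enzymes (TOP1, TOP1MT, TOP3A and TOP3B) cut one strand, and type II enzymes (TOP2A and TOP2B) cut both. Merbarone is a catalytic inhibitor of topoisomerase II that acts on the enzyme, so the RNA levels below describe the supply of transcript and not the activity of the protein. TOP2A serves chromosome segregation and is made mostly in S phase to mitosis, whereas TOP2B is made in dividing and resting cells.

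The TOP2A promoter is shown because the level of TOP2A varied together with that of cell cycle genes across libraries (median correlation 0.80 with the proliferation genes below). CCAAT boxes, bound by NF-Y, are common in promoters of cell cycle genes. In the 250 bases before the annotated start (RefSeq, GRCh38.p14), TOP2A had 4 matches to CCAAT, all on the opposite strand and so written ATTGG, in capitals below. They begin 244, 160, 93 and 53 bases before the start. The TOP2A region lies at chr17:40417897-40418146, minus strand. TOP2B is printed beside it as the only other one of the 7 members in the table with a match: the second of its 2 listed promoters, at chr3:25664908-25665157, minus strand, had 2 matches, 105 and 73 bases before the start. Both are written 5′ to 3′ on the gene's strand.
TOP2A: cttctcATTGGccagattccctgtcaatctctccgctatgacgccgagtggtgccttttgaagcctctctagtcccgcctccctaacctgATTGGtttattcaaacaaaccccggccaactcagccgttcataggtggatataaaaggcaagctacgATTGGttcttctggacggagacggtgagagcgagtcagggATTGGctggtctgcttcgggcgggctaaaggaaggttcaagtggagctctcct
TOP2B: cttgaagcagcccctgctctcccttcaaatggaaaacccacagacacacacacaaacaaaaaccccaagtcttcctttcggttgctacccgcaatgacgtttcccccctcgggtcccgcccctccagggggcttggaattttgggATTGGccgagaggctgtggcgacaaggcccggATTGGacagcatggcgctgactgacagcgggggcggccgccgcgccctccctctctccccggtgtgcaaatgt

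Of 35116 promoters in the RefSeq table, 32.0% held CCAAT on either strand and 9.53% held it 2 or more times. TOP1, TOP3A, TOP3B, TDP1 and TDP2 had 0 matches in the same window, although TOP1 and TDP1 also varied with the proliferation genes (median correlations 0.82 and 0.70). For the 15 proliferation genes below whose promoter was in the table, only the first listed promoter was searched. It held the motif in 14 of the 15, and 2 or more times in 9. The first listed promoter of TOP2B had 0 matches. TOP2A further held 2 matches to TTTGAA, the core of the cell cycle homology region, found in 13.3% of all promoters, and 1 to TATAAA, found in 10.7%. TTTGAA also had 1 match in the printed TOP2B promoter, 227 bases before the start, and 1 in that of TDP1, 30 bases before it. Both strands were searched for each motif, and a match is a description of the sequence and not evidence of binding. GC content was 53.2% for TOP2A, the lowest among the members' promoters, against 61.2% for the printed TOP2B promoter and a median of 58.0% over the table.

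Libraries of the 30 min experiment held 26638617 to 38232560 reads counted in genes, and those of the 2 h experiment 11958983 to 13693606. Replicate 1 of both 30 min groups stood apart: its chi-square against the other replicates of its group was 51.1 to 61.1 per degree of freedom over genes, against 21.7 and 15.3 between replicates 2 and 3. Behind each member's value lay between 93 reads (TOP1MT in an untreated library) and 20359 (TOP2A in a 30 min merbarone library). Values are RPKM, reads scaled to the length of the gene and to the total of the library, and the length in the deposited values was close to the whole genomic span, introns included. The retinal identity in the label was only partly visible. PMEL measured 3.68 to 5.07 RPKM and OTX2 2.35 to 4.61 RPKM. RPE65, which defines mature pigment epithelium, had 2 to 19 reads per library and reached at most 0.066 RPKM. RLBP1, TYRP1, TTR and TYR reached at most 0.0603, 0.0558, 0.0200 and 0.00338 RPKM. MITF and SERPINF1 reached at most 0.415 and 0.425 RPKM. At these like values MITF had 830 to 2105 reads per library and SERPINF1 58 to 188, against 437 to 1476 for OTX2. MITF was therefore not scarce in reads. Summed over the 10 pigment epithelium markers, levels were 8.98 to 11.8 RPKM in the 30 min experiment and 25.5 to 29.3 RPKM in the 2 h experiment, and did not separate treated from control libraries in either. BEST1, a chloride channel gene, carried that gap, with means of 2.58 and 2.48 RPKM in DMSO and 30 min merbarone and 18.8 and 18.5 RPKM in untreated and 2 h merbarone. The epithelial keratins KRT8 and KRT18 also differed between the experiments. Together they gave 16.3 to 21.3 RPKM in DMSO and 16.0 to 24.5 RPKM after 30 min of merbarone. In the 2 h experiment they gave 62.0 to 68.4 RPKM untreated and 70.3 to 76.0 RPKM treated. Overlaps of the 10 pigment epithelium markers and the keratins with other genes were not examined. Part of these values, PMEL and BEST1 included, may therefore come from reads of other genes. The markers of blood, endothelium, neurons and liver that were matched summed to at most 0.0107 RPKM, with CDH5 at 0 in every library. In these bulk samples fewer cells of a type and less RNA per cell cannot be told apart.

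TOP2A had the highest level of the 8 genes in every library. The gene, ENSG00000131747, spans 38544777 to 38574148 of chromosome 17 on the minus strand (GRCh37, as for all members). Its level was 12.3, 15.9 and 17.5 RPKM in the DMSO libraries. It was 12.5, 18.5 and 16.5 RPKM after 30 min of merbarone. Treated and control values covered nearly the same range, and replicate 1 was the lowest library of both groups. In the 2 h experiment TOP2A measured 12.9 and 9.68 RPKM in the untreated libraries and 11.5 RPKM in both treated libraries, which lay between the untreated ones. Its mean over the 10 libraries ranked at percentile 95.6 of the 17680 genes above 0. The RPKM length was close to the genomic span, so genes with long introns rank lower on this scale. These levels of TOP2A were measured in cells starved of serum for 48 h, together with 12.2 to 22.5 RPKM of the proliferation marker MKI67.

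TOP2B, on the minus strand of chromosome 3 from 25639469 to 25706400 (ENSG00000077097), gave 2.42, 2.49 and 2.79 RPKM in DMSO. After 30 min of merbarone it gave 2.58, 2.61 and 2.62 RPKM. The treated libraries were nearly equal and lay inside the range of the controls. At 2 h it measured 2.03 and 1.64 RPKM untreated and 1.85 and 1.71 RPKM treated, again inside the control range. Levels of TOP2B in the 2 h experiment all lay below those of the 30 min experiment, in control and treated libraries alike. The experiments differ in depth, time and kind of control, and these cannot be told apart. The ratio of TOP2A to TOP2B on the RPKM scale was 4.83 to 7.08 over the 10 libraries, with means of 5.91 ± 0.731 in DMSO and 6.06 ± 1.14 after 30 min of merbarone (SD, n = 3). It was 6.14 ± 0.342 untreated and 6.46 ± 0.359 after 2 h (SD, n = 2), so the ratio moved by less than the spread between replicates at 30 min and by less than 1 SD at 2 h.

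TOP1 (ENSG00000198900; chromosome 20, 39657462 to 39753127, plus strand) encodes the nuclear enzyme that relaxes supercoils around transcribing polymerases. It measured 0.729, 0.921 and 0.828 RPKM in DMSO and 0.732, 0.855 and 0.805 RPKM after 30 min of merbarone. It measured 0.888 and 0.793 RPKM untreated and 0.767 and 0.712 RPKM after 2 h. The 30 min groups overlapped, and at 2 h both treated libraries lay below both untreated ones. TOP1MT (ENSG00000184428; chromosome 8, 144386554 to 144442149, minus strand), the mitochondrial type I enzyme, was the lowest of the 8 genes. Its levels were 0.149, 0.201 and 0.156 RPKM in DMSO and 0.133, 0.152 and 0.132 RPKM after 30 min of merbarone, and each treated library lay below the DMSO library of its own number. It measured 0.142 and 0.140 RPKM untreated and 0.126 and 0.152 RPKM after 2 h, which overlapped.

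TOP3A (ENSG00000177302; chromosome 17, 18174742 to 18218321, minus strand) encodes the enzyme that works with the BLM helicase to resolve joined DNA molecules and that also serves mitochondria. It measured 0.996, 0.848 and 0.784 RPKM in DMSO and 0.914, 0.908 and 0.765 RPKM after 30 min of merbarone, in overlapping ranges. At 2 h it measured 1.11 and 0.990 RPKM untreated and 1.30 and 1.22 RPKM treated, so that both treated libraries were the higher. TOP3B (ENSG00000100038; chromosome 22, 22311397 to 22337210, minus strand), which acts with TDRD3 on DNA and RNA, measured 0.541, 0.727 and 0.612 RPKM in DMSO and 0.520, 0.730 and 0.557 RPKM after 30 min of merbarone. It measured 0.712 and 0.686 RPKM untreated and 0.820 and 0.725 RPKM after 2 h. The 30 min groups of TOP3B overlapped almost fully, and at 2 h the treated libraries lay above the untreated ones by a margin smaller than the gap between the 2 treated libraries.

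TDP1 (ENSG00000042088; chromosome 14, 90421283 to 90511108, plus strand) encodes the phosphodiesterase that mainly removes trapped TOP1. Its levels were 0.313, 0.362 and 0.368 RPKM in DMSO and 0.329, 0.396 and 0.355 RPKM after 30 min of merbarone. They were 0.404 and 0.332 RPKM untreated and 0.389 and 0.325 RPKM after 2 h. TDP2 (ENSG00000111802; chromosome 6, 24650207 to 24667158, minus strand), which mainly removes trapped TOP2, measured 2.44, 2.74 and 2.58 RPKM in DMSO and 2.43, 2.72 and 2.52 RPKM after 30 min of merbarone. It measured 2.79 and 2.20 RPKM untreated and 2.56 and 2.16 RPKM after 2 h. For both enzymes the treated and control ranges overlapped at both times, and replicate 1 exceeded replicate 2 in both groups of the 2 h experiment.

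**Figure D1:**
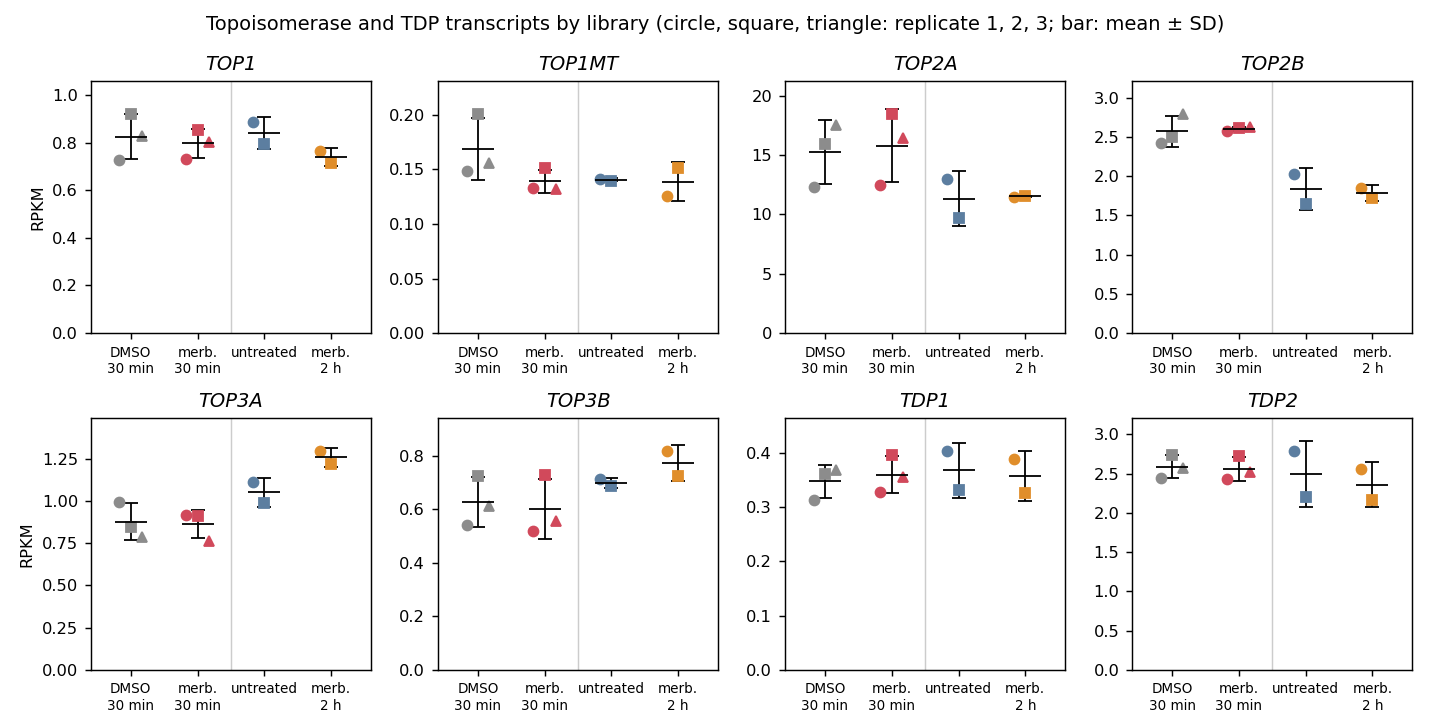
RPKM of the 8 genes in each of the 10 libraries, with group means and SD as black bars; each panel has its own axis, which starts at 0, and the grey line separates the 30 min experiment (3 libraries per group) from the 2 h experiment (2 per group). TOP2A lies between 9.68 and 18.5 RPKM, TOP3A is highest after 2 h of merbarone, and TOP2B is lower in the 2 h experiment in both groups.

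The order of the genes depended on the length used and on the experiment. On the deposited RPKM scale, means over the 6 libraries of the 30 min experiment were 15.5 for TOP2A, 2.58 for TOP2B and 2.57 for TDP2, followed by 0.869 for TOP3A and 0.811 for TOP1. TOP2B and TDP2 could not be separated, since TOP2B was the higher in 3 of 6 libraries, and the same held for TOP3A and TOP1. In the 2 h experiment TDP2 was above TOP2B, and TOP3A above TOP1, in 4 of 4 libraries, with ranges that did not overlap. TOP3B (0.614), TDP1 (0.354) and TOP1MT (0.154) came last. TOP1 and TDP1 have long introns, with a counted length 9.45 and 14.43 times the summed exon length, against 4.62 times for TOP2A and 3.59 times for TOP2B. The exon length joined the exons of all annotated transcripts: 18645 bp for TOP2B, 10127 bp for TOP1, 6374 bp for TOP2A and 2977 bp for TDP2. Levels per kilobase of exon, that of TOP2B included, depend on this choice. Per kilobase of exon, a scale added after seeing the values, the order became TOP2A at 71.6, TDP2 at 14.7, TOP2B at 9.28, TOP1 at 7.67, TDP1 at 5.11, TOP3A at 4.61, TOP3B at 2.39 and TOP1MT at 1.33 on the RPKM scale with exon length in place of the span. On that scale the ranges of TOP2B and TOP1 overlapped, as did those of TDP1 and TOP3A. In the 2 h experiment both pairs stood in the other order in 4 of 4 libraries, with ranges that overlapped. TOP2A stood first and TOP1MT last on both scales and in both experiments.

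After 30 min of merbarone none of the 8 genes passed the test, which was limma on log2(RPKM + 0.1) with Benjamini-Hochberg adjustment over 11871 genes. The background was also empty: 0 genes passed (0.0%), 64 had an unadjusted p under 0.05 (0.539%), and limma's voom on recovered reads called 1 gene. Without replicate 1 of both groups, an alternative added after seeing the data, 0 genes passed, TOP2A changed by 0.0625 and TOP1MT by -0.198. Treated and control libraries were separated for 0 of the 8 members, against 2.32% of all genes tested. Log2 fold changes ran from -0.16 for TOP1MT to 0.05 for TOP2A, with a median of -0.02 over the members and -0.00 over all genes. The 95% interval was widest for TOP2A, from 0.754-fold to 1.42-fold, and with the replicate number as a block, since same-numbered libraries deviated together, it ran from 0.920-fold to 1.16-fold. It was narrowest for TOP2B (0.902-fold to 1.14-fold) and TDP2 (0.877-fold to 1.12-fold). In the same libraries FOS, an immediate-early gene, went from a DMSO level of 0.992 ± 0.595 RPKM to 49.9 ± 11.6 RPKM (SD, n = 3). Its limma adjusted p was 0.0708, with 5.63 ± 0.40 (SE) as log2 fold change, and it passed in 8 of 19 settings.

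TOP1MT had the lowest p of the 8 genes at 30 min, with a log2 fold change of -0.16 ± 0.09 (SE). Its limma p was 0.124 before adjustment and its adjusted p 1.0. The value was -0.0777 without DMSO replicate 2, its highest library, and -0.216 without DMSO replicate 1, and over all alternatives it ran from -0.278 (voom with the replicate block) to -0.0365 (pseudocount of 1 RPKM). All 3 same-numbered pairs were lower after merbarone, at 0.754 to 0.896 times the DMSO level on the RPKM scale itself, which the fit on RPKM + 0.1 shrinks for so low a gene (0.893-fold). With the replicate number as a block the unadjusted limma p was 0.0231 and the adjusted p 0.999. With that block 3.92% of all genes had an unadjusted p under 0.05. TDP2 was also lower in 3 of 3 pairs, but only at 0.979 to 0.996 times DMSO.

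After 2 h of merbarone none of the 8 genes passed limma's test either, in a comparison where 794 of 12038 genes did (6.6%), 491 higher (4.08%) and 303 lower (2.52%), and 2028 with the replicate block (16.8%). Treated and untreated libraries were separated for 3 of the 8 genes, TOP3A and TOP3B above and TOP1 below, where 58.4% of all genes were separated in this comparison of 2 with 2 libraries, 27.5% with the treated libraries above and 30.9% with them below. The median absolute log2 fold change was 0.06 over the members and 0.16 over all genes tested. The lowest and highest limits of the 95% intervals were 0.746-fold (TOP1) and 1.41-fold (TOP3A).

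TOP3A had the largest change of the members at 2 h, a log2 fold change of 0.24 ± 0.11 (SE), or 1.18-fold. Its limma adjusted p was 0.213, and 0.131 with the replicate block, so it did not pass. Both same-numbered pairs were higher, at 1.17 and 1.23 times untreated. TOP1 changed by -0.16 ± 0.11 (SE; limma adjusted p 0.388), and by -0.0889 without untreated replicate 1 and -0.235 without untreated replicate 2. TOP3B changed by 0.12 ± 0.11 (SE; limma adjusted p 0.506), and by 0.0452 without merbarone replicate 1 and 0.203 without merbarone replicate 2. The targets of merbarone were near 0: TOP2A changed by 0.04 ± 0.15 (SE), with a 95% interval of -0.31 to 0.39, and TOP2B by -0.03 ± 0.13 (SE), with an interval of -0.33 to 0.27. TOP2A was lower than untreated in pair 1 and higher in pair 2. TDP1 (-0.03), TDP2 (-0.07) and TOP1MT (-0.01) had intervals that included 0 as well.

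**Figure D2:**
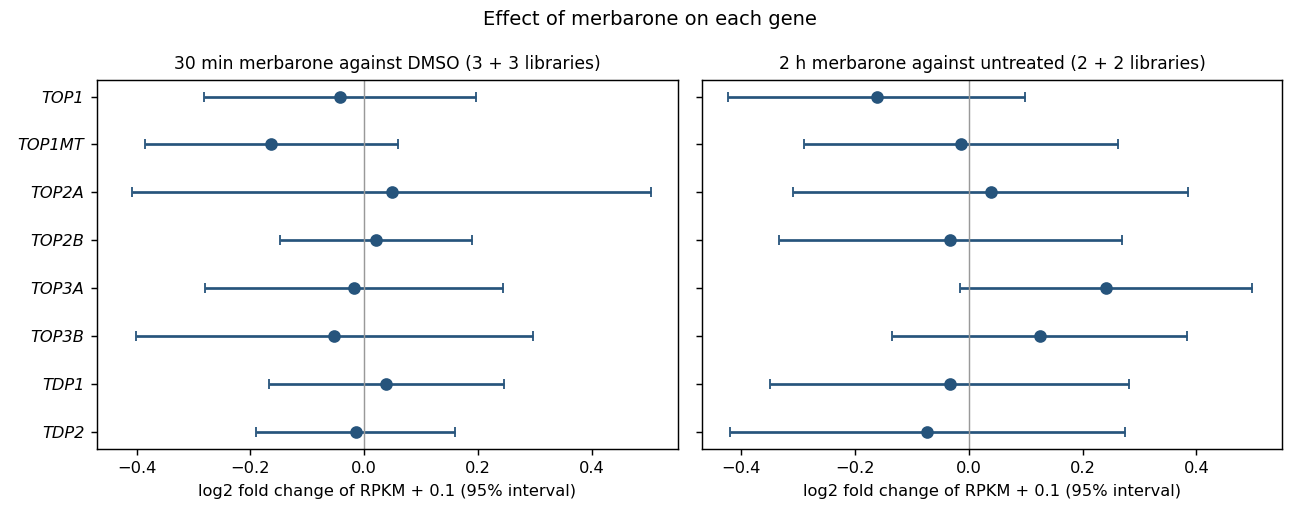
Log2 fold change of RPKM + 0.1 (x axis) for each gene, merbarone against control, at 30 min (left, 3 + 3 libraries) and 2 h (right, 2 + 2 libraries); points are limma estimates and bars their 95% intervals. Every interval includes 0, and TOP3A at 2 h, at 0.24, comes closest to excluding it.

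Whether the effect differed between the experiments was tested as a contrast over all 10 libraries, in which time, kind of control and experiment cannot be told apart. It was called for 0 of the 8 genes, against 125 of 11988 genes in all (1.04%). The largest difference was 0.26 ± 0.16 (SE) for TOP3A, with a limma adjusted p of 0.521.

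TOP2A is a standard marker of cycling cells, so it was set beside 20 proliferation genes (cyclins, mitotic kinases and spindle genes). At 30 min 0 of the 20 passed, with a median log2 fold change of 0.03. At 2 h 6 of the 20 were lower (30.0%, against 2.52% of all genes called lower), 0 were higher and 14 did not pass. The median was -0.26 against -0.01 over all genes, and 19 of the 20 estimates were below 0. CCNB2, a mitotic cyclin, fell from 3.69 and 3.53 RPKM untreated to 2.49 and 2.26 RPKM (log2 fold change -0.59 ± 0.10 SE, limma adjusted p 0.0247). KIF20A, a kinesin of cytokinesis, fell from 19.9 ± 2.60 to 13.2 ± 0.354 RPKM (SD, n = 2; -0.58 ± 0.12 SE, limma adjusted p 0.0404). BIRC5, which encodes survivin, fell from 17.1 and 17.9 to 11.3 and 12.6 RPKM (-0.55 ± 0.10 SE, limma adjusted p 0.0298). The treated libraries were below both untreated libraries for each of these 3 genes, as for 30.9% of all genes, and AURKA, PLK1 and CDC20 were the others that fell. TOP2A was not among them: its 0.04 was above 19 of the 20 estimates, and the exception was MKI67, the marker behind the Ki-67 index, at 0.13 ± 0.14 (SE; 15.7 and 12.2 RPKM untreated, 15.9 and 14.4 RPKM treated). The difference between TOP2A and these genes was not tested. The 6 calls became 9 with the replicate block and 10 without untreated replicate 2, but 3 without merbarone replicate 1, 2 without merbarone replicate 2, and 0 with no filter or with all 10 libraries in 1 fit; none was higher in any of 15 alternatives. Without merbarone replicate 2 the limma adjusted p was 0.104 for CCNB2 and 0.0799 for KIF20A, and without merbarone replicate 1 it was 0.163 for BIRC5.

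**Figure D3:**
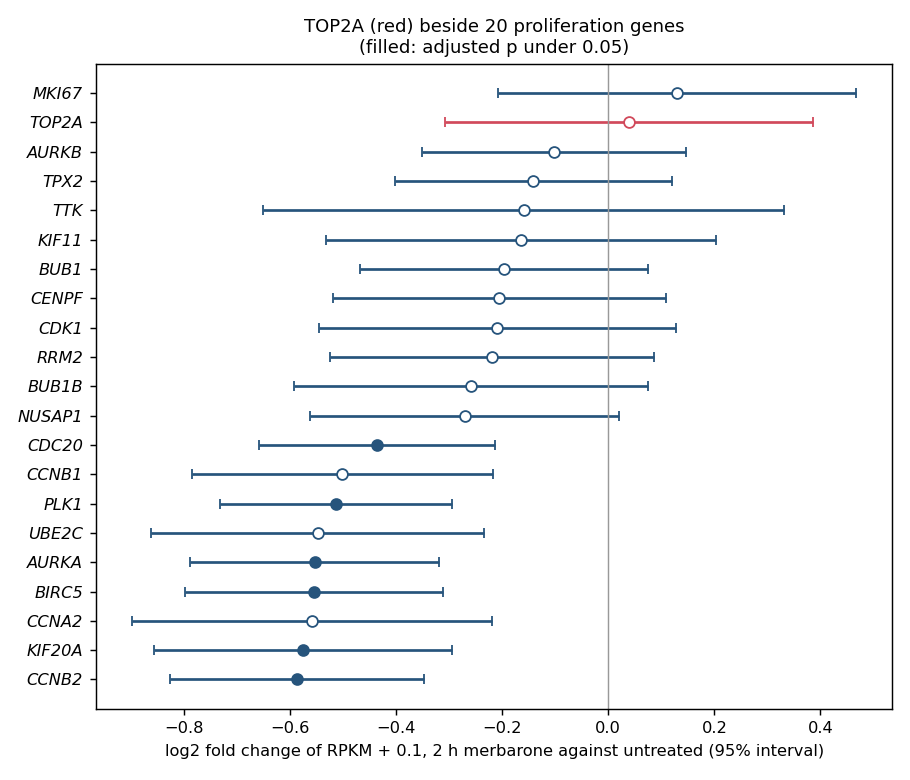
Log2 fold change of RPKM + 0.1 after 2 h of merbarone against untreated (2 + 2 libraries) for TOP2A in red and 20 proliferation genes in blue, with 95% intervals; filled points passed limma's adjusted threshold. The 6 filled points lie between -0.59 and -0.44, while MKI67 at 0.13 and TOP2A at 0.04 are the highest.

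Genes that process trapped topoisomerase or repair the break it leaves made up a list of 32, of which 30 were tested. At 30 min 0 passed, with a median of -0.00. At 2 h 2 were higher, 1 was lower and 27 did not pass, so 3 of 30 were called against 6.6% of all genes, which is near the background. The median was 0.05 against -0.01 over all genes. PRKDC, the catalytic subunit of DNA-dependent protein kinase, rose from 0.764 and 0.555 RPKM to 1.12 and 1.13 RPKM (log2 fold change 0.70 ± 0.15 SE, limma adjusted p 0.0426). Both treated libraries were above both untreated ones, but the same gene ran from 1.08 to 2.03 RPKM in the DMSO libraries of the other experiment. FEN1, a flap endonuclease, fell from 23.9 ± 0.722 to 17.6 ± 0.630 RPKM (SD, n = 2; -0.44 ± 0.09 SE, limma adjusted p 0.0457), and lies almost wholly inside FADS2 on the same strand (4259 bp shared), so its value is uncertain. The DNA-dependent protease SPRTN (0.15) and the SUMO ligase ZNF451 (0.54, limma adjusted p 0.0799), which prepares trapped TOP2 for TDP2, did not pass, although ZNF451 did with the replicate block (0.0178). The count of 3 ranged from 0 with no filter to 8 over 15 alternatives, and was 5 without untreated replicate 1. PRKDC was not called with no filter (limma adjusted p 0.147) or with all 10 libraries in 1 fit (0.142), and FEN1 was not called without merbarone replicate 1 (0.307) or replicate 2 (0.155).

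ERCC1, a nuclease subunit that can remove trapped TOP1, was the other gene called higher at 2 h, and its rise went with that of a gene inside it. It measured 1.38 and 1.42 RPKM untreated and 2.36 and 2.49 RPKM treated (log2 fold change 0.75 ± 0.10 SE, limma adjusted p 0.0102), and had a log2 fold change of 0.87 at 30 min (limma adjusted p 1.0). The immediate-early gene FOSB lies wholly inside ERCC1 on the opposite strand, with 7185 bp shared, and had log2 fold changes of 5.06 at 30 min (limma adjusted p 0.189) and 5.26 at 2 h (limma adjusted p 2.7e-05). ERCC1 had 1319 and 1217 reads untreated and 2308 and 2326 reads after 2 h, while FOSB had 15 and 19 reads and then 1043 and 1056. With the reads of FOSB taken off, a step added after seeing the data, ERCC1 had 97.8 and 100.1 CPM (counts scaled to library size) untreated and 92.4 and 97.4 after 2 h. The same subtraction gave 92.3, 90.5 and 85.5 CPM in DMSO and 93.3, 86.2 and 80.7 after 30 min of merbarone. The fitted log2 fold change of ERCC1 then became -0.06 ± 0.10 (SE; limma adjusted p 0.745) at 2 h and -0.04 ± 0.07 (SE) at 30 min, so 1 gene of the list, PRKDC, remained called higher. None of the 8 members overlaps another gene of the tables. Annotated genes outside the tables lie on the opposite strand within TOP1 (PLCG1-AS1, 26469 bp shared) and TOP3B (PPM1F-AS1, 20608 bp shared). Shorter ones lie on the opposite strand within TOP3A (RPL7AP65, 748 bp, and RPL21P121, 774 bp) and TOP1MT (86 and 107 bp). Others lie on the same strand within TOP2A (107 bp) and TOP2B (37 bp). The part of all these genes in the members' values was not tested.

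The partners of the type IA enzymes TOP3A and TOP3B, among them BLM, RMI1, RMI2 and FMR1, gave 0 called of 8 tested at both times, with a median of 0.07 at 2 h. TDRD3, the partner of TOP3B named above, missed the filter on low values and was not tested. It had a median of 0.0918 RPKM and 145 to 629 reads per library. In lists this short a count of 0 is near the 6.6% of all genes called at 2 h. BLM measured 0.163 and 0.128 RPKM untreated and 0.208 and 0.230 RPKM treated (0.38 ± 0.12 SE, limma adjusted p 0.121), the largest value of that list and in the same direction as TOP3A. RMI1 (0.03) and RMI2 (-0.11), the other subunits of the complex with TOP3A, were near 0. Genes of mitochondrial DNA upkeep, the setting of TOP1MT, gave 0 called of 9 tested at both times, with medians of -0.03 and 0.01. The largest value at 2 h was that of TEFM, a mitochondrial transcription elongation factor, at 0.48 ± 0.12 (SE; limma adjusted p 0.0738). With the replicate block TEFM (limma adjusted p 0.0184) and POLG2, a subunit of the mitochondrial DNA polymerase (0.40; 0.0346), were called, 2 of the 9 against 16.8% of all genes.

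Likeness between genes was measured as the Pearson correlation of log2(RPKM + 0.1) over the 10 libraries, each gene centred on the mean of its experiment. These libraries share treatment, depth and replicate number, so the correlations are descriptions. TOP2A was most like CEP57 (r = 0.992), RAD21 (0.988) and SKA3 (0.988) among 11987 genes, which encode a centrosomal protein, a cohesin subunit and a kinetochore protein. It had r = 0.872 with MKI67 and a median r of 0.80 with the 20 proliferation genes, against 0.16 with all genes. In the 30 min experiment TOP2A was 0.32 and 0.30 below the experiment's mean on the log2 scale in replicate 1 of DMSO and of merbarone, and above it in the other 4 libraries. The summed proliferation genes spanned 112.2 to 175.3 RPKM within DMSO alone and 114.0 to 180.9 RPKM within 30 min of merbarone.

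TDP1 and TDP2 had r = 0.901 with each other, and TDP1 had r = 0.825 with TOP2A. TOP1 had a median r of 0.82 with the proliferation genes, but only 0.34 with MKI67. TOP3A stood apart, with a median r of -0.59 with the proliferation genes and correlations of -0.46 to 0.14 with the other 7 members. Among the most like genes were SH3TC2, DUSP18 and CNIH3 for TOP1 (r = 0.960 to 0.969), PPP5C and TXLNA for TOP1MT (0.923 and 0.912) and TMEM123, MCM9 and SLK for TOP2B (0.961 to 0.971). They were FAM120C, CAPN2 and BTBD3 for TOP3A (0.965 to 0.970) and NDOR1 and PELP1 for TOP3B (0.979 and 0.970). For TDP1 they were TXNDC16, ZNF177 and the read-through ZNF559-ZNF177, which shares reads with ZNF177 (0.967 to 0.972), and for TDP2 TRMT1L, FAM76A and ENSG00000273217 (0.963 to 0.983).

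**Figure D4:**
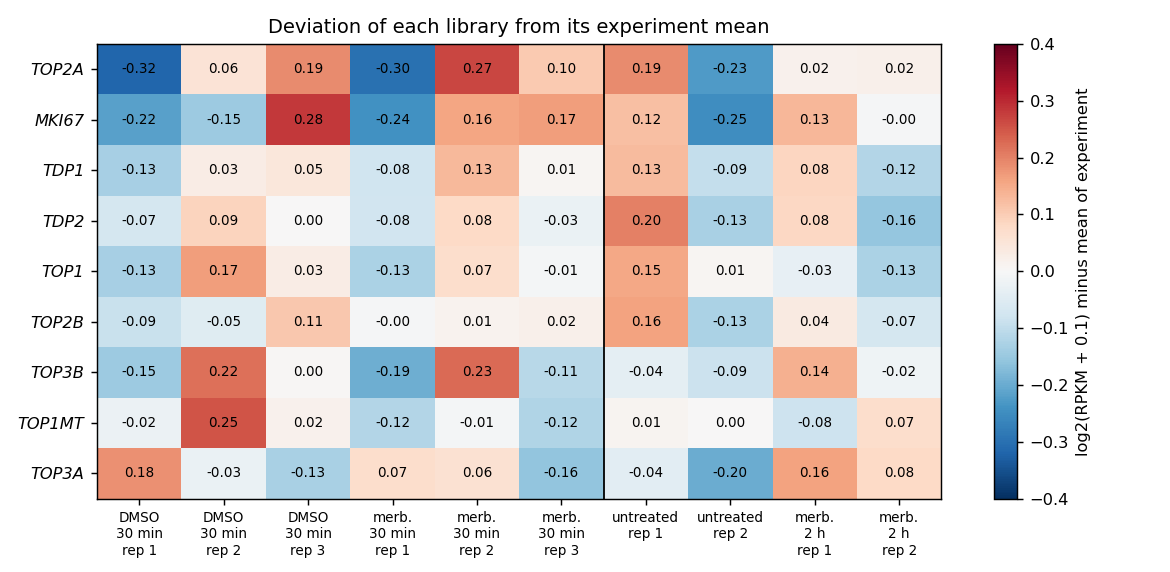
Deviation of log2(RPKM + 0.1) from the mean of its experiment for the 8 genes and MKI67 (rows) in the 10 libraries (columns; the black line separates the experiments), from blue (below the mean) to red (above). TOP2A is lowest in replicate 1 of both 30 min groups (-0.32 and -0.30), and TOP3A is above its mean in both libraries of 2 h merbarone (0.16 and 0.08).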

How the data were processed

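Per the labels' protocols, libraries were made with TruSeq Stranded mRNA from 150 ng of total RNA. The authors deposited 1 table of RPKM values per library. Bowtie 1.2.0, deepTools 2.4.1 and hg19 (GRCh37) are named in the submitters' processing notes; their roles, the read counter and any use of strand in counting are not given in the sources used here. Reads were recovered from the steps in the RPKM values: 17680 genes, 100% of those above 0, gave whole reads within 0.0001. The implied length was within 1% of the genomic span for 75.4% of 17234 genes. Because spans make values low, a pseudocount and a minimum mean of 0.1 RPKM were used. On this log2(RPKM + 0.1) scale the change of low genes is understated. Tests were two-sided with limma 3.58.1 (R 4.3.3; lmFit, eBayes with trend), Benjamini-Hochberg threshold 0.05, each comparison on its own experiment. The scripts were tested on simulated data. Positions are from GENCODE (GRCh37), and promoters of 7 of 8 members are from RefSeq.

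The members and lists were chosen with earlier results of these data known. Named genes were the members, up to 3 called genes per list and comparison with the largest change, MKI67, FOS and the 3 genes most like each member; some of these genes are not reported here, and others were named after their values were seen. In the 30 min experiment same-numbered libraries deviated together (correlations 0.85, 0.618 and 0.536 over 11871 genes). Deviations were taken from each group's mean, so the mean of -0.32 for different numbers largely follows from these values. At 2 h the correlation of same-numbered libraries was only 0.152 over 12038 genes. It is a single value, since each group there holds 2 libraries. The labels do not say that replicates are separate cultures, so p-values measure only the spread between these samples. Alternatives were other pseudocounts, filters and scalings, eBayes without trend, a replicate block, voom on recovered reads, all 10 libraries in 1 fit, and leaving out each library.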

Additional observations from a re-analysis of the deposited data

How the results depend on the processing

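No member passed limma's threshold under any alternative: 0 of 134 values at 30 min, 0 of 112 at 2 h and 0 of 150 for the difference (lowest adjusted p 0.0576, TOP3A at 2 h by voom with the replicate block). With libraries left out in turn, or replicate 1 of both groups at 30 min, signs changed for members near 0. The ranges at 30 min were -0.12 to 0.0305 (TOP1), -0.0982 to 0.209 (TOP2A), -0.0193 to 0.0792 (TOP2B), -0.0866 to 0.0691 (TOP3A), -0.179 to 0.0445 (TOP3B), -0.018 to 0.0883 (TDP1) and -0.0588 to 0.0257 (TDP2). At 2 h they were -0.0909 to 0.064 (TOP1MT), -0.168 to 0.246 (TOP2A), -0.177 to 0.112 (TOP2B), -0.145 to 0.0776 (TDP1), -0.238 to 0.0921 (TDP2) and -0.0552 to 0.315 (MKI67). For the difference they were -0.217 to 0.197 (TOP2A), -0.197 to 0.0918 (TOP2B), -0.184 to 0.0387 (TDP1) and -0.223 to 0.107 (TDP2), and TOP2A's -0.01 became 0.00537 with median scaling and 0.0939 with quantile normalization. ERCC1 became -0.0576 at 2 h and -0.0416 at 30 min without the reads of FOSB.

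The count of called genes at 30 min (0) became 1 with a pseudocount of 1 RPKM, no filter, a mean of at least 1 RPKM, both of these, quantile normalization or voom, 2 with all 10 libraries in 1 fit and 0 to 1 without single libraries. At 2 h (794) it became 87 with no filter, 1863 with voom and 656 to 2476 without single libraries, the highest without untreated replicate 1. For the difference (125) it became 205 with a pseudocount of 1 RPKM, 241 with no filter, 66 with voom and 31 to 88 without single libraries, the lowest without merbarone 2 h replicate 2. With the replicate block it was 2 at 30 min, 2028 at 2 h and 1482 for the difference, and with voom and the block 13, 3471 and 2081. With the block the 2 h lists gave 5 called for repair (3), 9 for proliferation (6), 2 for mitochondrial upkeep (0) and 0 for TOP3 partners (0). FEN1 was called in 9 of 16 settings, PRKDC in 12 of 14, CCNB2 and BIRC5 in 13 of 16 and KIF20A in 12 of 16. The causes were not tested. The 2 h pairs number only 2, and same-numbered libraries there correlated at only 0.152, so the block at 2 h rests on little beyond the label. TOP1MT, with 93 to 343 reads, is the member most limited by depth.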
